A study of Mus musculus with 8 samples.

Results

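Mitochondria carry their own ribosome, the mitoribosome, which translates the few membrane proteins that mitochondrial DNA encodes, all of them subunits of the respiratory chain and of the ATP synthase. Its ribosomal RNAs (rRNAs) come from mitochondrial DNA, while every protein of its large particle (the Mrpl genes) and small particle (the Mrps genes) is encoded in the nucleus, made in the cytosol and imported. In pancreatic β cells, oxidative metabolism of glucose supplies the ATP that closes potassium channels and triggers insulin release. The genes described here are the protein-coding genes of the deposited table whose symbol begins with Mrpl or Mrps and a number. The rule found 77 of the 27534 genes listed, and it used no measured value.

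RNA was sequenced from islets of C57BL/6J mice, kept in culture for 72 h in RPMI 1640 medium with 20 mM glucose (high glucose, 4 libraries) or 7.5 mM glucose (low glucose, 4 libraries), with 10% serum and HEPES in both. The labels name no genetic change, sex or age for either group. The study is about IRE1α, which senses misfolded protein in the endoplasmic reticulum, and about Golgi growth in early β-cell compensation. Whether libraries of a group came from separate mice is not stated, so p-values measure the spread between these libraries only.

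Of the 77 genes, 50 encode proteins of the large particle and 26 proteins of the small particle. By textbook homology, 46 of the proteins have a bacterial counterpart and 30 were added in mitochondria. Mrps36 carries the family name, but its product (KGD4) is known as a component of the 2-oxoglutarate dehydrogenase complex and not of the mitoribosome. Some symbols name the wrong particle: the products of Mrps30 (mL65) and Mrps18a (mL66) sit in the large particle and are counted there. All 77 genes passed the filter on low counts, with 49 to 1462 reads per gene and library, so the filter left out no gene of the family. They lie on 17 chromosomes.

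Total counts were 20516328 to 24905499 per high glucose library, against 19543045 to 24949515 per low glucose library. The share of insulin genes was 17.3% to 21.7% in high glucose libraries, against 17.2% to 22.7% in low glucose libraries, and all 10 β-cell markers were detected. Of these 10 markers, 2 rose and 4 fell, beside 13.1% and 11.9% of all genes tested, so the list moved in both directions. Markers of acinar cells, the enzyme-secreting cells around the islets, had a share of 0.483% to 2.69% in high glucose libraries, against 0.194% to 1.62% in low glucose libraries, and all 20 were detected. Of the 19 acinar markers tested, 1 rose, beside 13.1% of all genes tested. It was Bhlha15, named after its values were seen, at 99.2 to 112 CPM in high glucose and 48.6 to 57.3 CPM in low glucose. Its spread within groups was far smaller than that of an enzyme marker such as Ctrb1 (1805 to 8632 CPM in high glucose). Once the replicate number was a term in the model, 12 of the 19 acinar markers rose, beside 18.9%. The 10 fibroblast markers summed to 239 to 1428 CPM (counts relative to the TMM-adjusted library size) in high glucose libraries, against 195 to 460 CPM in low glucose libraries. Of these 10, 0 passed the test. High glucose library 1 alone stood out, at 0.141% of counts. The other high glucose libraries had 0.0238% to 0.0422%, and the low glucose libraries 0.0207% to 0.0439%. The part of these markers in the results below was not tested, except for a fit with the acinar share as a covariate. In that fit 7 genes of the family were higher and 2 lower, beside 12.7% and 10.6% of all genes tested. In bulk RNA, fewer cells of a type and less RNA per cell cannot be told apart.

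Libraries numbered 2 stood apart for this family in both groups. The 77 genes summed to 1811, 2097, 1828 and 1871 CPM in high glucose libraries 1 to 4, against 1650, 2175, 1640 and 1723 CPM in low glucose libraries 1 to 4. Library 2 was therefore the highest of its group in high glucose and in low glucose, and low glucose library 2 exceeded every high glucose library. Low glucose library 2 had the highest value of all 8 libraries for 46 of 77 genes and high glucose library 2 for 23, and for 42 genes these were the top 2. As a share of all counts, without any scaling, the family took 0.197% in high glucose library 2 and 0.176% to 0.186% in the other three of that group, against 0.208% in low glucose library 2 and 0.173% to 0.180% in the other three. Markers of glucagon-secreting α cells were also highest in these libraries, at 2.40% of counts in high glucose library 2 (1.24% to 1.90% in the other three), against 2.82% in low glucose library 2 (1.51% to 2.06% in the other three), as were the insulin genes. The 8 α-cell markers, all detected, summed to 12840 to 25540 CPM in high glucose libraries, against 14320 to 29530 CPM in low glucose libraries. Of these 8, 2 rose and 0 fell, beside 13.1% and 11.9% of all genes tested. The part of these markers in the family's values was not tested.

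**Figure D1:**
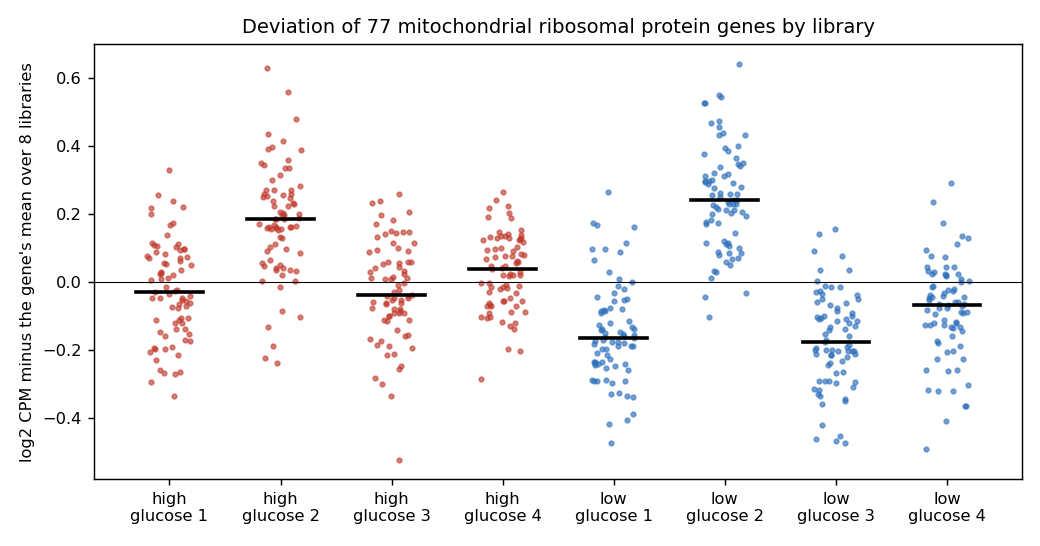
Deviation of each of the 77 genes from its own mean over the 8 libraries (log2 CPM), by library, with high glucose on the left; each point is a gene and each bar the median. The medians of libraries numbered 2 were 0.186 in high glucose and 0.241 in low glucose, and the other medians lay between -0.176 and 0.040.

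The replicate number took a larger part of the spread in this family than over all genes tested. With log2 of CPM plus 0.5, the replicate number took a median of 64.6% of a gene's sum of squares (3 degrees of freedom) and glucose 15.1% (1 degree of freedom). Over all genes tested those medians were 38.2% and 29.4%. The number took more than glucose in 74.0% of the family and in 55.8% of all genes tested. Its 3 degrees of freedom favour it in that count, so only the family and all genes can be set side by side. Set pair by pair, 56, 27, 60 and 53 of 77 genes were higher in the high glucose library than in the low glucose library with the same number, from 1 to 4. Pair 2 was thus the one in which most of the family was lower in high glucose.

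Between the groups, the family as a whole differed little. Under edgeR's quasi-likelihood test, with Benjamini-Hochberg adjustment over 15442 genes and a threshold of 0.05, 8 of 77 genes (10.4%) rose in high glucose, beside 13.1% of all genes tested. In the other direction 3 of 77 (3.90%) fell, beside 11.9% of all genes tested. The remaining 66 did not pass. The median log2 fold change, high over low glucose, was 0.06 over the family and -0.01 over all genes tested, and 54 of 77 (70.1%) were positive, beside 48.5%. The sign of the family's median depends on scaling: with library size alone it was -0.01, with 35 of 77 positive, and the median over all genes was -0.09. The same change of scaling moved the split to 7 higher and 5 lower in the family, and moved the share of higher genes among all calls to 37.8%, beside 52.5% with TMM.

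Changes were small. Log2 fold changes ran between -0.45 and 0.62. For 63 of the 66 genes that did not pass, the 95% interval of the fold change lay inside 1.5-fold in either direction, and for the other three (Mrps36, and Mrps6 and Mrpl52, both named after their values were seen) it reached beyond. Groups did not overlap for 11 of 77 genes (14.3%), beside 27.3% of all genes tested. Of these 11, 9 passed the test, and the other two, Mrps35 and Mrpl40, did not; Mrpl40 is named after its values were seen.

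Genes of the large particle made up 6 of the 8 that rose and 1 of the 3 that fell, out of 50 (12.0% and 2.0%). The small particle held 2 and 2 of 26 (7.69% each). Proteins with a bacterial counterpart accounted for 5 higher and 3 lower of 46 (10.9% and 6.52%). Mitochondrial additions accounted for 3 higher and 0 lower of 30 (10.0% and 0.0%). Over all genes tested these shares were 13.1% and 11.9%. With the replicate number as a term, 8 genes with a bacterial counterpart rose and 3 fell. In that fit 5 additions rose and 2 (Mrps33 and Mrps35) fell, beside 18.9% and 18.5% of all genes tested.

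**Figure D2:**
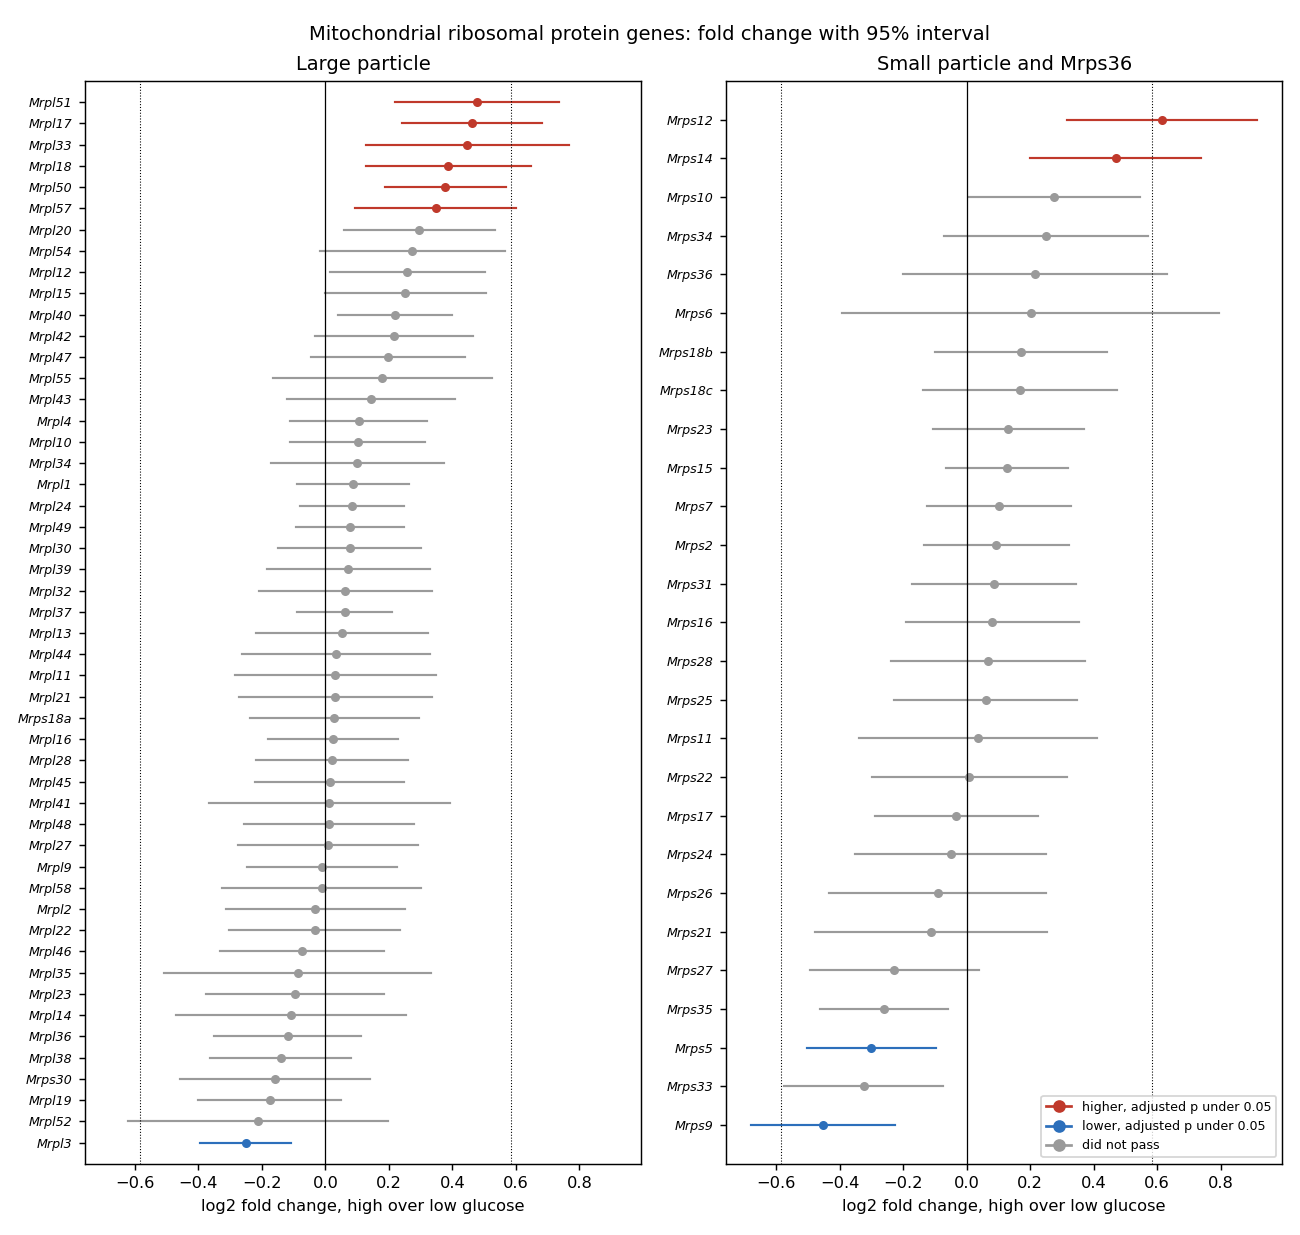
Log2 fold change of each gene, high over low glucose, with its 95% interval from edgeR, large particle left and small particle with Mrps36 right, ordered by size. Red and blue mark the 8 genes that rose and the 3 that fell, and the dotted lines mark 1.5-fold; most intervals cross 0 and stay within these lines.

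In the small particle, the rise was largest for Mrps12 (ENSMUSG00000045948, chr7:28739641-28741820, minus strand, GRCm38), which encodes uS12m, the counterpart of the bacterial protein at the decoding centre where codon and anticodon pair. It had 49.8, 66.3, 51.2 and 46.8 CPM in high glucose libraries 1 to 4, against 35.0, 43.2, 31.1 and 30.5 CPM in low glucose libraries 1 to 4. No high glucose library was as low as any low glucose library, although both libraries numbered 2 were the highest of their group. The means were 53.5 ± 8.71 CPM in high glucose and 35.0 ± 5.83 CPM in low glucose (SD, n = 4 each), a 1.53-fold rise (adjusted p = 0.00742, edgeR). Mrps14 (ENSMUSG00000058267, chr1:160195215-160202170, plus strand) encodes uS14m, a protein of the head of the small particle. Its values were 38.0, 45.4, 35.3 and 35.8 CPM in high glucose libraries 1 to 4, against 26.7, 34.2, 23.6 and 27.2 CPM in low glucose libraries 1 to 4. Groups did not overlap, and the rise was 1.38-fold (edgeR adjusted p = 0.0175).

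Mrps9 and Mrps5, also of the small particle, fell. Mrps9 (ENSMUSG00000060679, chr1:42851233-42905683, plus strand) encodes uS9m, whose bacterial counterpart reaches with its tail toward the tRNA in the peptidyl site. It had 14.8, 15.4, 14.8 and 17.3 CPM in high glucose libraries 1 to 4, against 21.8, 23.9, 18.2 and 21.4 CPM in low glucose libraries 1 to 4. All high glucose libraries were below all low glucose libraries, with log2 fold change -0.45 ± 0.102 SE and an edgeR adjusted p of 0.00861. Mrps5 (ENSMUSG00000027374, chr2:127587222-127606829, plus strand) encodes uS5m, whose bacterial counterpart lines the path by which mRNA enters. It showed 25.9, 27.8, 26.2 and 28.1 CPM in high glucose libraries 1 to 4, against 33.4, 38.7, 31.8 and 28.9 CPM in low glucose libraries 1 to 4. Low glucose library 4 came closest to the high glucose group, without reaching it, and the log2 fold change -0.30 ± 0.0917 SE gave an edgeR adjusted p of 0.0358.

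Among large particle genes, Mrpl51 and Mrpl17 rose most. Mrpl51 (ENSMUSG00000030335, chr6:125191801-125196269, plus strand) encodes mL51, a mitochondrial addition. It had 40.1, 45.4, 37.2 and 36.8 CPM in high glucose libraries 1 to 4, against 25.1, 35.6, 26.6 and 27.2 CPM in low glucose libraries 1 to 4. Low glucose library 2 came within a few CPM of the lowest high glucose library, and the groups did not overlap. The rise was 1.39-fold (edgeR adjusted p = 0.0127). Mrpl17 (ENSMUSG00000030879, chr7:105803206-105811099, minus strand) encodes bL17m, whose bacterial counterpart lies by the tunnel through which the new chain leaves. Mrpl17 had 61.1, 65.7, 58.2 and 59.1 CPM in high glucose libraries 1 to 4, against 42.1, 54.2, 40.6 and 40.2 CPM in low glucose libraries 1 to 4. Here the high glucose libraries lay close together, and low glucose library 2 lay far above the other three of its group. Means were 61.0 ± 3.31 CPM in high glucose and 44.3 ± 6.68 CPM in low glucose (SD, n = 4 each), or 1.38-fold (edgeR adjusted p = 0.00680).

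Mrpl50 (ENSMUSG00000044018, chr4:49512596-49521093, minus strand) encodes mL50, another mitochondrial addition. Its values were 46.0, 41.0, 43.0 and 37.3 CPM in high glucose libraries 1 to 4, against 29.9, 35.7, 32.5 and 30.5 CPM in low glucose libraries 1 to 4. Unlike most of the family, its highest value was in high glucose library 1, and the groups did not overlap (1.30-fold, edgeR adjusted p = 0.00899). Mrpl18 (ENSMUSG00000057388, chr17:12911349-12916345, minus strand) encodes uL18m, whose bacterial counterpart binds 5S rRNA. Reads gave 12.3, 13.9, 12.9 and 12.2 CPM in high glucose libraries 1 to 4, against 8.57, 11.7, 9.75 and 9.36 CPM in low glucose libraries 1 to 4. Groups stayed apart by a narrow gap, at 1.31-fold with an edgeR adjusted p of 0.0343.

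Mrpl33 and Mrpl57 passed the test with groups that overlap. Mrpl33 (ENSMUSG00000106918, chr5:31596935-31664384, plus strand) encodes bL33m, a small protein with a bacterial counterpart. It had 19.0, 21.7, 17.9 and 19.3 CPM in high glucose libraries 1 to 4, against 13.2, 19.1, 12.1 and 12.8 CPM in low glucose libraries 1 to 4. Low glucose library 2 alone lay within the high glucose range, and the rise was 1.36-fold (edgeR adjusted p = 0.0452). Mrpl57 (ENSMUSG00000021967, chr14:57826234-57829296, plus strand) encodes mL63, a mitochondrial addition. It had 38.9, 47.2, 39.9 and 37.8 CPM in high glucose libraries 1 to 4, against 28.6, 39.0, 28.4 and 32.8 CPM in low glucose libraries 1 to 4. Again only low glucose library 2 reached the high glucose range, with 1.27-fold and an edgeR adjusted p of 0.0482.

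Mrpl3 (ENSMUSG00000032563, chr9:105053239-105079888, plus strand) was the one large particle gene that fell; it encodes uL3m, whose bacterial counterpart lies close to the peptidyl transferase centre. It had 31.0, 30.8, 30.2 and 31.7 CPM in high glucose libraries 1 to 4, against 36.0, 39.3, 37.2 and 34.8 CPM in low glucose libraries 1 to 4. High glucose libraries spanned less than 2 CPM, and all lay below the low glucose libraries (log2 fold change -0.25 ± 0.0646 SE, edgeR adjusted p = 0.0169).

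**Figure D3:**
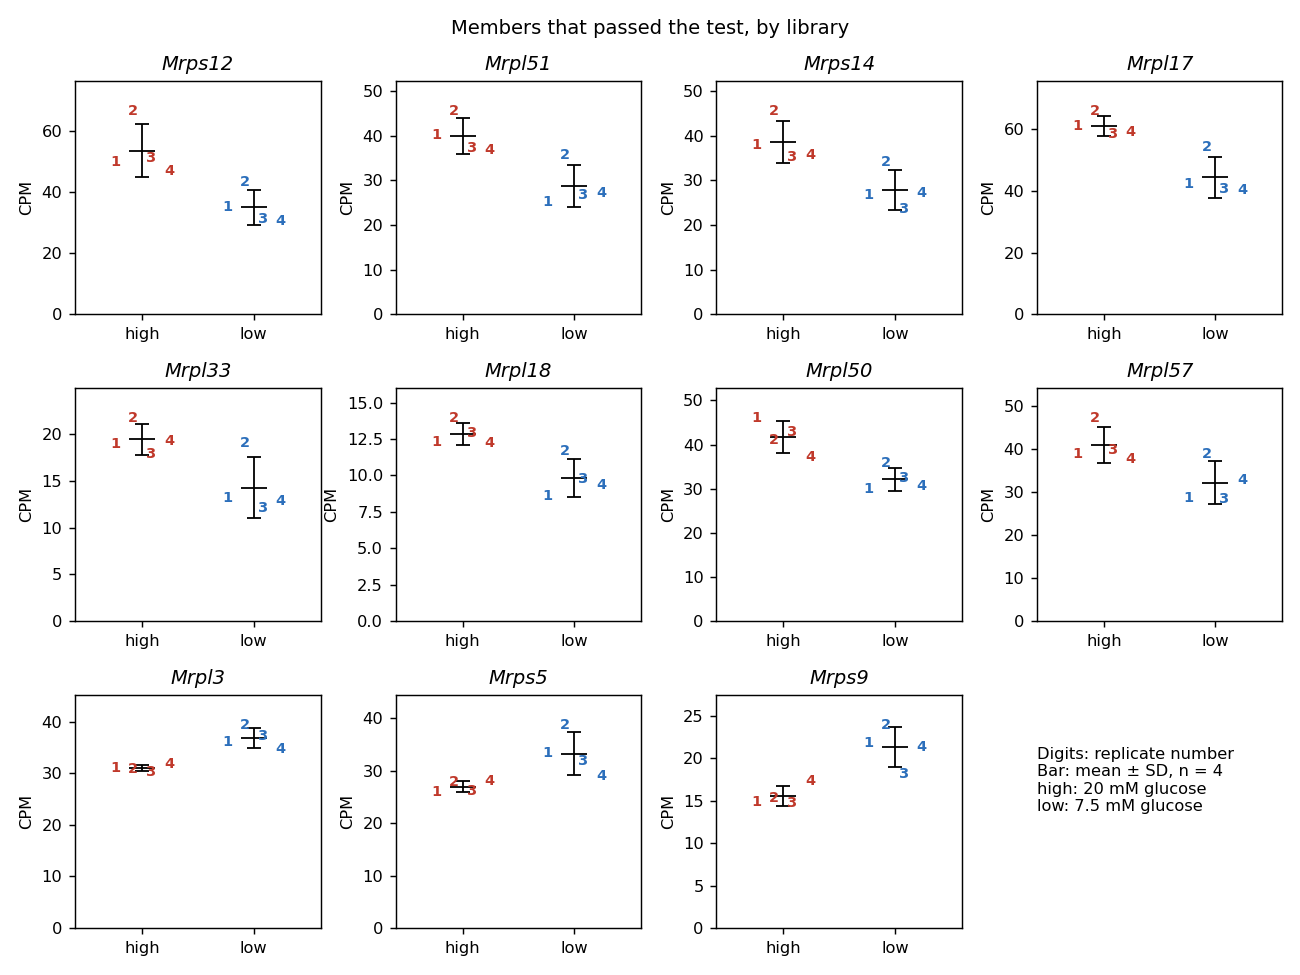
CPM of the 11 genes that passed the test, high glucose (red) left of low glucose (blue), each digit a library by its replicate number, with mean ± SD (n = 4). Digit 2 is at or near the top of both groups for most genes, and only Mrpl33 and Mrpl57 have overlapping groups.

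Just short of the threshold were Mrps33, Mrps35 and Mrpl20, with edgeR adjusted p of 0.0607, 0.0612 and 0.0695. Mrps33 encodes mS33, a mitochondrial addition, and had 26.3, 32.7, 27.3 and 27.5 CPM in high glucose libraries 1 to 4, against 34.3, 43.8, 32.4 and 32.1 CPM in low glucose libraries 1 to 4. High glucose library 2 lay inside the low glucose range. Mrps35 (mS35) averaged 14.8 ± 1.04 CPM in high glucose and 17.7 ± 1.22 CPM in low glucose, and Mrpl20 (bL20m) averaged 37.0 ± 1.67 CPM in high glucose and 30.1 ± 5.04 CPM in low glucose (SD, n = 4 each). In the authors' deposited table, 8 genes of the family are higher and 4 lower at adjusted p under 0.05 (shares over all genes not counted). Those 12 contain all 11 named above, and the authors' deposited table adds Mrps33 (log2 fold change -0.32, adjusted p = 0.0483).

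Of the 11 genes, 5 passed the test in every one of 17 alternatives run (other scalings, filters and tools, the replicate term, the acinar covariate and leaving out libraries): Mrps12, Mrpl51, Mrpl17, Mrpl50 and Mrps9. Mrps14 missed the threshold only without low glucose replicate 1 (edgeR adjusted p = 0.0527, range over alternatives 0.000146 to 0.0527). Mrpl3 missed it only without high glucose replicate 3 (0.0512, range 0.00341 to 0.0512). Mrpl33, Mrpl18 and Mrpl57 each passed in 1 of the 8 fits that left out a single library, the one without low glucose replicate 2, and Mrps5 passed in 3 of 8, those without low glucose replicate 2, 3 or 4. Other alternatives ended some of these calls too: the acinar covariate those of Mrpl33 and Mrps5, no filter on low counts those of Mrpl18 and Mrps5, and library size alone that of Mrpl57. Over all alternatives the largest adjusted p was 0.119 for Mrpl33, 0.0994 for Mrpl18, 0.135 for Mrpl57 and 0.0900 for Mrps5.

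How many genes rose depended on low glucose replicate 2. Without it 15 genes of the family rose and 3 fell, beside 16.8% and 15.6% of all genes tested in that fit; the family's median log2 fold change was 0.16, and 67 of 77 were positive. Without both libraries numbered 2, 13 rose and 4 fell, beside 16.4% and 15.8% of all genes tested, with a median of 0.12 and 59 positive. Leaving out any other single library gave 4 or 5 that rose and 1 to 3 that fell, beside at least 10.2% and at least 8.77% of all genes tested.

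When the replicate number was a block, 13 genes rose and 5 fell, beside 18.9% and 18.5% of all genes tested. All 11 genes above were among these 18. The added genes were Mrpl15, Mrpl20, Mrpl40, Mrpl54 and Mrps10, which were higher, and Mrps33 and Mrps35, which were lower; Mrpl15 and Mrps10 are named after their values were seen. Of the 77 genes, 19 (24.7%) were higher in high glucose in all 4 pairs, beside 24.8% of all genes tested, and 7 (9.09%) were lower in all 4, beside 25.8%.

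Levels within the family can be set side by side only per length, and the authors' FPKM divides by a listed gene length. Mean FPKM over 8 libraries ran between 1.77 for Mrps30 and 52.1 for Mrps21 (bS21m), a 29.4-fold range. Mrps12 (41.9 FPKM) and Mrpl54 (mL54, 36.1 FPKM) came next below Mrps21. At the low end, Mrps35 (1.85 FPKM, library range 1.52 to 2.18) and Mrps25 (1.86, range 1.58 to 2.23) did not differ from Mrps30 (range 1.42 to 2.17) beyond their spread. Mrps21 (range 43.9 to 74.2) and Mrps12 (range 28.9 to 62.7) overlapped too. Median FPKM was 9.74 in the large and 6.81 in the small particle.

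The listed length is the union of all annotated exons for 72 of 77 genes, as a comparison with GENCODE M21 showed, and it exceeds the main coding transcript over 2-fold for 21 genes. The extreme was Mrpl33, listed at 7326 bases where its main transcript has 478. Rescaled to main transcripts, an alternative chosen after seeing the data, Mrpl33 moved to 34.7 FPKM from 2.27, and to rank 11 of 77 from rank 71. Rescaling takes every read of a gene as coming from its main transcript, which was not checked. Mrps21 and Mrps12 stayed first and second at 95.02 and 60.3 FPKM. The range became 47.2-fold, with Mrps25 lowest at 2.01 FPKM, and the Spearman correlation between both orders was 0.713 over 77 genes, which share the same reads. Across genes, which are not independent replicates, the Spearman correlation of the log2 fold change was -0.08 with listed length and 0.06 with mean CPM.

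**Figure D4:**
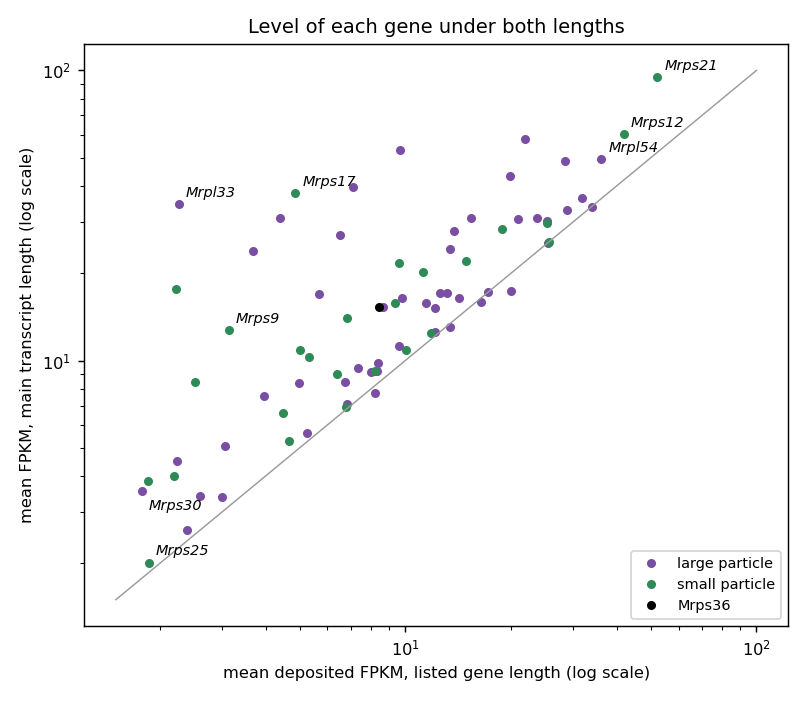
Mean FPKM over the 8 libraries with the listed gene length (horizontal) and with the main transcript length (vertical), both axes logarithmic; points are genes and the line marks equality. Mrpl33 lies farthest above the line, and Mrps21 and Mrps12 are highest on both axes.

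Mrps18 has 3 paralogues whose products occupy different places in the mitoribosome. Mrps18c (bS18m) averaged 10.8 ± 0.939 CPM in high glucose and 9.63 ± 1.70 CPM in low glucose, Mrps18b (mS40) 12.0 ± 0.907 CPM in high glucose and 10.6 ± 1.48 CPM in low glucose and Mrps18a (mL66) 24.6 ± 2.58 CPM in high glucose and 24.2 ± 3.96 CPM in low glucose (SD, n = 4 each). None of the 3 passed the edgeR test (adjusted p = 0.418, 0.346 and 0.891), nor did Mrps36 (11.7 ± 1.80 CPM in high glucose and 10.1 ± 2.62 CPM in low glucose, adjusted p = 0.446). Per listed length, Mrps18c was at 9.33 FPKM, Mrps18a at 6.50 and Mrps18b at 5.31. Per main transcript the order changed, with Mrps18a at 27.1 FPKM, Mrps18c at 15.7 and Mrps18b at 10.3. The order of the paralogues thus depends on the length used.

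Promoters are shown because genes of this family are known to be bound by factors with well described motifs: NRF1, ETS factors such as GABP, and YY1. Windows of 300 bases, 250 before to 50 after the start, were taken from RefSeq (GRCm38.p6) for 68 of the 77 genes, in 74 windows. On either strand, the ETS motif CCGGAAG (reverse complement CTTCCGG) was in 33.8% of the family's windows and in 8.86% of all 32851 windows of that length. The NRF1 core GCGCATGC was in 10.8% against 2.71%, the YY1 motif AAGATGGCG in 10.8% against 1.4%, and the E-box CACGTG in 9.46% against 7.15%. None of these motifs contains another. Shifted windows of Mrpl2 hold the same E-box, so the 7 windows with an E-box come from only 5 of 68 genes. By gene, the ETS motif was in 6 of the 8 that rose, 1 of the 3 that fell and 18 of 57 that did not pass. For the NRF1 core these counts were 2 of 8, 0 of 3 and 6 of 57, for YY1 0, 0 and 8, and for the E-box 0, 0 and 5. A match describes the letters only, and 31 of the 68 genes had no match in these windows.

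The windows that follow were chosen after their values were seen: those of the 4 largest rises among the 6 genes that rose and hold the ETS letters (Mrps12, Mrpl51, Mrpl17 and Mrpl33; Mrpl18 and Mrpl57 hold them too), that of Mrpl3, which fell and holds them, and that of Mrps9, the larger fall of the pair with none of the 4 motifs (the other is Mrps5). They are chr7:28741772-28742071 on the minus strand for Mrps12, chr6:125191950-125192249 on the plus strand for Mrpl51, chr7:105811038-105811337 on the minus strand for Mrpl17, chr5:31613701-31614000 on the plus strand for Mrpl33, chr9:105053018-105053317 on the plus strand for Mrpl3 and chr1:42850983-42851282 on the plus strand for Mrps9 (RefSeq, GRCm38.p6). Each is printed 5′ to 3′ in the direction of the gene, and capitals mark a motif in either orientation.
Mrps12: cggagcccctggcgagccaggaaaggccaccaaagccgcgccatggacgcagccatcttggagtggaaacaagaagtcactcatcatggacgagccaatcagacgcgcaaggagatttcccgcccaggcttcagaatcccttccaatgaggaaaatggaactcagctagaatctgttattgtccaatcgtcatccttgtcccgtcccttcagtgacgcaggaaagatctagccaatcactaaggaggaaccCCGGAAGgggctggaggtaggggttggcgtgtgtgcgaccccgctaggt
Mrpl51: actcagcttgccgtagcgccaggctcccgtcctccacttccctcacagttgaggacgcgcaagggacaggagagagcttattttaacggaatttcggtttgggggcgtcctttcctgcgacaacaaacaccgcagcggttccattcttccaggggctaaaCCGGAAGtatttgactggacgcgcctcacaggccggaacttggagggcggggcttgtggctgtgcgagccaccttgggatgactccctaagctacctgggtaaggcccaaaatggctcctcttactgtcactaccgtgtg
Mrpl17: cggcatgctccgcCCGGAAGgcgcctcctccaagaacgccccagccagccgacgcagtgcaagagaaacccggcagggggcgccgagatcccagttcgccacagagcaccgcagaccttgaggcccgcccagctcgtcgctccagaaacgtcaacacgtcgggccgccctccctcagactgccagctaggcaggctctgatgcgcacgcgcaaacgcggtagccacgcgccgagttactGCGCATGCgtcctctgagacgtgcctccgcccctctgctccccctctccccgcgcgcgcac
Mrpl33: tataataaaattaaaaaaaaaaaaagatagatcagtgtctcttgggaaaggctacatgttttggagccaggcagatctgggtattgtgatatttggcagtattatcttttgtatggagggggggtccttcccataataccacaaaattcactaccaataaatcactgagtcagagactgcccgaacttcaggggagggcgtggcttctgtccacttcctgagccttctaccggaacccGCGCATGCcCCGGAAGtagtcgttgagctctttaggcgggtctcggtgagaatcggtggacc
Mrpl3: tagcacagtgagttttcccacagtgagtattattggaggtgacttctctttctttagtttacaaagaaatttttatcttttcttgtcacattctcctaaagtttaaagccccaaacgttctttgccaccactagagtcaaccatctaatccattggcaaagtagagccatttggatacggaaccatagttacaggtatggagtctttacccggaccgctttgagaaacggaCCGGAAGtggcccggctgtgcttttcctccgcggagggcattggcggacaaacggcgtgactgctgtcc
Mrps9: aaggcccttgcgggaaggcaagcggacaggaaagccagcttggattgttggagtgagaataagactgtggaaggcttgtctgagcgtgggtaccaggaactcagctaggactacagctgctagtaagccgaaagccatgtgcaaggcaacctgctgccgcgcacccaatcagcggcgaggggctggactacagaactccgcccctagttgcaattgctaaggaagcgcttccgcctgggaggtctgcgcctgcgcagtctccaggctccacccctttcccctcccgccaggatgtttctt
The ETS letters stand in the windows of Mrps12 and Mrpl51, whose transcripts rose 1.53-fold and 1.39-fold, and equally in that of Mrpl3, whose transcript fell.

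Of the factors themselves, Nrf1 had 22.4, 21.9, 20.0 and 22.0 CPM in high glucose libraries 1 to 4, against 27.4, 34.2, 26.9 and 28.7 CPM in low glucose libraries 1 to 4, and Yy1 90.1, 94.5, 92.7 and 93.4 CPM in high glucose libraries 1 to 4, against 111, 109, 111 and 112 CPM in low glucose libraries 1 to 4. Both were lower in every high glucose library than in any low glucose library (Nrf1 log2 fold change -0.44 ± 0.0906 SE, edgeR adjusted p = 0.00527; Yy1 log2 fold change -0.26 ± 0.0569 SE, adjusted p = 0.00724). Pprc1, a coactivator of the PGC-1 family, averaged 38.4 ± 2.62 CPM in high glucose and 27.8 ± 2.75 CPM in low glucose (SD, n = 4 each) and rose 1.38-fold (edgeR adjusted p = 0.00342). These were the 1 higher and 2 lower of 10 regulators of mitochondrial biogenesis, beside 13.1% higher and 11.9% lower of all genes tested. Gabpa, an ETS subunit, averaged 36.2 ± 2.41 CPM in high glucose and 38.6 ± 3.05 CPM in low glucose, Ppargc1a 2.63 ± 0.253 CPM in high glucose and 3.33 ± 0.479 CPM in low glucose and Myc 15.4 ± 5.26 CPM in high glucose and 13.99 ± 3.79 CPM in low glucose, and they did not pass (edgeR adjusted p = 0.435, 0.206 and 0.724).

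Many genes of the family start head to head with a neighbour, which is transcribed the other way from a nearby start. A coding neighbour on the opposite strand began within 1000 bases for 33 genes, among them Mrps11 and Mrpl46, which neighbour each other. Pairs whose starts overlap were included. Of 31 neighbours tested, Mrps11 and Mrpl46 included, 6 rose (19.4%, beside 13.1% of all genes tested) and 1 fell (3.23%, beside 11.9%). The neighbours named here, and Mrpl43, were chosen after their values were seen, except Twnk. Mrpl51 starts 100 bases from Ncapd2, a condensin subunit, which averaged 26.9 ± 3.20 CPM in high glucose and 17.0 ± 1.09 CPM in low glucose (SD, n = 4 each; 1.58-fold, edgeR adjusted p = 0.000758). Mrpl57 starts 49 bases from Ska3, of the kinetochore, at 1.46 ± 0.243 CPM in high glucose and 0.560 ± 0.267 CPM in low glucose (2.54-fold, edgeR adjusted p = 0.0190). These were the pairs in which both genes passed, out of 6 genes of the family that passed and have such a neighbour. Ncapd2 passed in all 17 alternatives and Ska3 in 14; Ska3 missed the threshold when high glucose library 2, low glucose library 3 or both libraries numbered 2 were left out (largest edgeR adjusted p = 0.0592). Of the other neighbours that passed, Apba3, Rab6a and Twnk did so in all 17, Mtbp in 10 (largest edgeR adjusted p 0.0815) and Eme1 in 6 (largest 0.118). Rab6a, Twnk, Mtbp and Eme1 overlap their gene of the family, by 892, 780, 341 and 198 bases. Without high glucose replicate 2, Ska3, Mtbp and Eme1 all missed the threshold.

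Among the other tested pairs, neither gene passed in 20, where Mrps11 with Mrpl46 is counted once from each side. In 4 pairs the gene of the family alone passed and in 5 the neighbour alone, which was not tested as a difference. Mrps12 starts 172 bases from Sars2, the mitochondrial seryl-tRNA synthetase, which had 9.13 ± 0.724 CPM in high glucose and 7.57 ± 0.856 CPM in low glucose and did not pass (1.204-fold, edgeR adjusted p = 0.151). Mrpl54 did not pass, while Apba3, 26 bases away, rose 1.30-fold (edgeR adjusted p = 0.00338). Mrpl43 (log2 fold change 0.14) did not pass, while the overlapping Twnk, the mitochondrial DNA helicase, fell (log2 fold change -0.49, edgeR adjusted p = 0.00320).

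**Figure D5:**
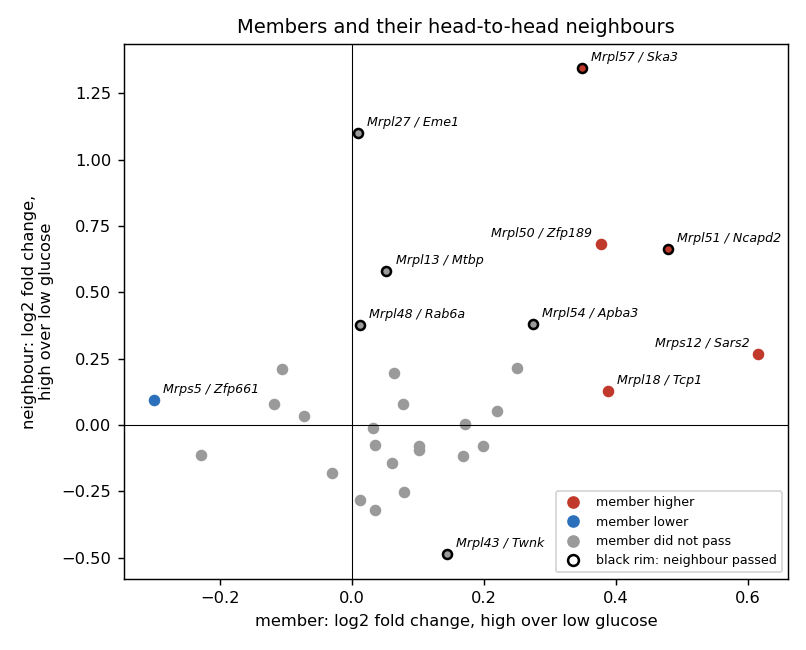
Log2 fold change, high over low glucose, of each gene of the family (horizontal) and of its head-to-head neighbour (vertical) for the pairs with a tested neighbour; names are given where either gene passed. Mrpl51 with Ncapd2 and Mrpl57 with Ska3 are the points where both passed.

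Overlap with other genes limits some values. Of the 77 genes, 35 overlap another listed gene, taken over whole gene spans with introns. The strand setting of the counting is not given in the sources used here, so reads from stretches shared by both genes cannot be told apart. Among the genes that passed, Mrpl33 (with Rbks), Mrpl18 (with Tcp1) and Mrpl3 (with Gm38077) overlap a listed gene. Annotated genes that are not listed add overlaps, such as the pseudogene Gm15645 along 7894 bases with Mrpl17.

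The 5 mitoribosomal proteins with other names (Dap3, Ptcd3, Chchd1, Aurkaip1 and Gadd45gip1) gave 0 higher and 0 lower, with 0 at an unadjusted p under 0.05 and 0 called by DESeq2 or limma-voom. Dap3 (mS29), a GTP-binding protein of the small particle, had 47.1, 53.4, 50.1 and 44.0 CPM in high glucose libraries 1 to 4, against 54.6, 65.4, 53.9 and 47.6 CPM in low glucose libraries 1 to 4. It was lower in high glucose in each of 4 pairs, with overlapping groups (edgeR adjusted p = 0.212, and 0.0256 with the replicate block, range over alternatives 0.0256 to 0.411).

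Of 29 factors that assemble the mitoribosome, 2 rose and 2 fell, beside 13.1% and 11.9% of all genes tested. Mrm1, which methylates the large rRNA, averaged 20.8 ± 1.96 CPM in high glucose and 15.7 ± 1.43 CPM in low glucose (SD, n = 4 each; 1.32-fold, edgeR adjusted p = 0.0138), and Mief1, whose human transcript also encodes a small assembly protein, rose 1.19-fold (edgeR adjusted p = 0.0212). Fastkd2 and Mtg2, which act in large particle assembly, fell (log2 fold change -0.38 and -0.36; edgeR adjusted p = 0.0224 and 0.0319). Mrm1 passed in every alternative, while Fastkd2 missed the threshold without high glucose replicate 3 or 4 or low glucose replicate 4 (largest edgeR adjusted p = 0.0657). Mtg2 missed it without high glucose replicate 1, 3 or 4 or low glucose replicate 3 or 4 (largest 0.0954), and Mief1 without high glucose replicate 1, 2 or 3 or low glucose replicate 1 or 3 (largest 0.0683).

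Of 23 translation factors and related proteins, 0 rose and 3 fell, beside 13.1% and 11.9% of all genes tested. With the replicate block 5 fell, beside 18.5%. The shares that fell were thus near those over all genes tested. Lrpprc, which stabilises mitochondrial mRNAs, had 87.5, 82.4, 88.5 and 91.4 CPM in high glucose libraries 1 to 4, against 122, 142, 129 and 126 CPM in low glucose libraries 1 to 4. Groups were far apart (log2 fold change -0.57 ± 0.0710 SE, edgeR adjusted p = 0.000280). Guf1, the mitochondrial counterpart of bacterial LepA, averaged 20.0 ± 1.13 CPM in high glucose and 29.3 ± 3.33 CPM in low glucose, and Gatb, of the enzyme that makes glutaminyl-tRNA, 9.40 ± 1.01 CPM in high glucose and 13.01 ± 1.01 CPM in low glucose (SD, n = 4 each; edgeR adjusted p = 0.00170 and 0.0131). All 3 passed in each of the 17 alternatives. Of 23 genes of mitochondrial DNA transcription and RNA processing, Tbrg4, a FASTK-family RNA-binding protein, rose 1.16-fold (edgeR adjusted p = 0.0449) and Twnk fell. Tbrg4 missed the threshold in 7 of the 8 fits that left out a library, all but the one without low glucose replicate 2 (largest edgeR adjusted p over alternatives 0.188, with library size alone). Without a replicate block this list gave 1 higher and 1 lower, beside 13.1% and 11.9% of all genes tested. The block raised these counts to 4 higher and 2 lower, beside 18.9% and 18.5%.

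The mitoribosome's own rRNAs did not pass. Over the 8 libraries mt-Rnr1 had 59.9 to 189 CPM and mt-Rnr2 223 to 495 CPM. Both lay far below the mitochondrial mRNA mt-Co1, at 4069 to 6482 CPM. How much rRNA the library preparation kept was not examined, so these values may not follow rRNA levels. The small rRNA mt-Rnr1 had 90.1, 189, 111 and 103 CPM in high glucose libraries 1 to 4, against 106, 80.9, 59.9 and 99.0 CPM in low glucose libraries 1 to 4 (log2 fold change 0.51 ± 0.237 SE, edgeR adjusted p = 0.146). High glucose library 2 had by far the highest value, and the groups overlapped. The large rRNA mt-Rnr2 averaged 354 ± 98.2 CPM in high glucose and 279 ± 52.5 CPM in low glucose (SD, n = 4 each; edgeR adjusted p = 0.221). Of the 13 mRNAs made from mitochondrial DNA, which the mitoribosome translates, 0 passed with edgeR, DESeq2 or limma-voom, and 0 had an unadjusted p under 0.05. Levels were very uneven (genes named after their values were seen). In high glucose mt-Co1 averaged 5404 CPM, but mt-Atp8 0.481 CPM, with 5 to 33 reads per library. There mt-Co2, mt-Co3, mt-Atp6, mt-Nd3 and mt-Nd4l averaged 3.74 to 20.95 CPM. How reads matching several places were counted is not given, so a missing call in these low genes says little. Without low glucose replicate 1, 1 of the 13 mRNAs passed, mt-Nd1, named after its values were seen (edgeR adjusted p = 0.0455, range over alternatives 0.0455 to 0.408).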

How the data were processed

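RNA from 8 islet libraries was sequenced, 4 per glucose concentration; per the labels' protocols, the RNeasy micro kit and the NEBNext Ultra RNA library kit were used. STAR 2.5, HTSeq 2, DESeq2 and the build mm10 (GRCm38) are named, per the submitters' processing notes; the strand setting and annotation release were not given in the sources used here. Per the file headers, the deposited table holds the authors' raw read counts (whole numbers) and their FPKM for every gene in each library. It also holds a gene length, and the authors' log2 fold change and adjusted p-value for high against low glucose, which were copied and not refitted.

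The test was edgeR 4.0.16 (R 4.3.3) after filterByExpr with a minimum count of 10 and a minimum total of 15. TMM scaled the library sizes, and the quasi-likelihood model held glucose alone over the 8 libraries. P-values were adjusted by Benjamini-Hochberg over 15442 genes, with a threshold of 0.05. Dividing a log2 fold change by the root of its F gave its standard error, and intervals are 95%. CPM uses TMM-adjusted library sizes, and 3 counts correspond to 0.114 to 0.161 CPM; that limit reflects counting error alone. The lowest chi-square per gene between a pair of libraries was 9.64, so none was a copy. The procedure was tested on simulated data.

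Same-numbered libraries of both groups deviated together over 15442 genes (correlations 0.101, 0.449, 0.404 and 0.475 for numbers 1 to 4). Each was over a limit of 0.1, and unequal numbers gave -0.367 to 0.207. The numbers were therefore taken as pairs in the replicate block and in the descriptions by number, while the main test did not use them. Number 1 is the weakest: low glucose library 1 correlated more with high glucose library 4 (0.207). The pairing comes from the data, since the labels do not say what a number marks. Alternatives were RLE, upper quartile or library size scaling, no filter, DESeq2 1.42.0, limma-voom 3.58.1, the replicate block, the acinar share as covariate, and leaving out libraries.

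The genes and lists were chosen with earlier results of these data known. Named are up to 8 passing genes per particle and direction, the 3 highest and 3 lowest by FPKM, 3 on either side of the threshold, the Mrps18 genes, Mrps36, 7 fixed related genes and up to 3 passing genes per related list and direction. Of the family, Mrpl53 was not analysed here. Particle and homology classes are textbook assignments, and head-to-head neighbours and main transcripts come from GENCODE M21.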

Additional observations from a re-analysis of the deposited data

Results flagged for a closer look

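Within groups of 4, 5 of 82 sets of values had a library farther from the others than Dixon's test allows at 95%; chance gives about 1 in 20. Low glucose library 2 was the one in 4 of them: the summed CPM of the 77 genes was 2175, against 1640 to 1723 in the other low glucose libraries. Mrpl17 was at 54.2 CPM there (40.2 to 42.1 in the others), Mrpl33 at 19.1 CPM (12.1 to 13.2) and Mrps21 at 56.4 CPM (33.4 to 36.8). For Myc, high glucose library 4 was at 23.2 CPM, against 12.4 to 13.2 CPM in the other high glucose libraries. Acinar markers took 2.69% of counts in that library, the highest share of the 8; their part in the value was not tested.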

How the results depend on the processing

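With RLE or upper quartile scaling 8 genes rose and 3 fell, as in the main result, and limma-voom gave the same counts. With library size alone 5 fell, 11 translation and assembly factors changed (7 in the main result) and 1 gene of mitochondrial DNA transcription and RNA processing changed (2 in the main result). The last count was also 1 with no filter, with DESeq2 and with limma-voom, 6 with the replicate block and 4 without both libraries numbered 2. With the replicate block 13 genes of the family rose and 5 fell, and over all genes 2917 rose and 2862 fell, against 2023 and 1831 without it. The block changed the calls of Mrpl15, Mrpl20, Mrpl40, Mrpl54, Mrps10, Mrps33 and Mrps35 in the family and, among the related genes chosen by rule, that of Dap3. Without both libraries numbered 2, 13 rose. Leaving out 1 library at a time gave 4 to 15 that rose, 1 to 3 that fell, 4 to 9 translation and assembly factors and 1 to 4 genes of mitochondrial DNA transcription and RNA processing; the highest of these counts, except that of genes that fell, came without low glucose replicate 2. Mitochondrially encoded transcripts changed gave 0 to 1, the 1 without low glucose replicate 1. The cause of these shifts was not tested. The family's median log2 fold change moved between 7.46e-06 and 0.156 over the same fits. For named genes, 597 of the values under alternatives stayed on their side of the threshold with the same direction, 62 lost the threshold, 13 gained it and 8 levels moved; none changed direction after passing. With 4 libraries a group, 95% intervals reached a median of 0.26 to either side on the log2 scale, so changes smaller than that were mostly not detectable.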

Other observations

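The cytosolic ribosomal protein genes took 2.05%, 2.30%, 1.94% and 2.503% of counts in high glucose libraries 1 to 4, against 2.34%, 3.08%, 2.23% and 2.68% in low glucose libraries 1 to 4; low glucose library 2 was the highest for them as well, and no test was run. Of 4 processed pseudogenes of the family in the table, Mrpl23-ps1 had 7 to 15 reads per library, and Mrps36-ps2, Mrps36-ps1 and Mrpl48-ps had between 0 and 11; none passed the filter on low counts.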
